A study of Homo sapiens with 4 samples.

Results

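The loci described are those of the TAM receptor tyrosine kinases TYRO3, AXL and MERTK and of their ligands GAS6 and PROS1 (protein S). Members were all regions that the authors' deposited table assigns to 1 of these 5 genes, 24 of 91107 distinct regions. Of these, 13 belong to the ligands and 11 to the receptors. The measurement was chromatin immunoprecipitation and sequencing of H3K27ac, an acetylated form of histone H3 found at active promoters and enhancers, in A375, an established BRAF-mutant human melanoma line. Octanoate, a fatty acid of medium chain length, was applied at 1 mM in 2 libraries, and isopropanol alone (vehicle) in another 2, with 48 hours of exposure in each group per the labels. All libraries come from this single line, grown in serum-containing medium. Whether the 2 libraries of a group are separate cultures is not given in the labels.

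GAS6 and protein S are secreted proteins with a Gla domain, whose glutamates are carboxylated in a vitamin K-dependent reaction and which binds phosphatidylserine on dying cells. Their laminin G-like domains bind the receptors, GAS6 all of them and protein S mainly TYRO3 and MERTK. Receptor activation drives engulfment of dying cells, survival signalling and damping of innate immune responses. In melanoma, AXL is known as a marker of the dedifferentiated, drug-tolerant cell state, and protein S is also a cofactor of the anticoagulant activated protein C.

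The authors' deposited table gives, for each region, a mean level in normalized units, a log2 fold change with its standard error, and p-values, but no value per library. The spread between libraries, the depth of each library and the level in each group are therefore unknown. Its header does not name the numerator of the fold change, so values are called positive or negative and not gains or losses under octanoate. The 5 genes were chosen with the fold changes of this comparison known, among which a GAS6 region has the largest value of all tested regions. The fold changes below are therefore descriptions, and neither the authors' p-values nor the recomputed one given for the GAS6 region is independent support. An adjusted p-value was computed by the authors for 36436 regions, here called tested regions, and a call is a tested region with an adjusted p-value under 0.05. The median log2 fold change of all tested regions in the authors' deposited table was 0.32, so a value near 0.32 is the common one. In the check of the labelled cell type, 3 of 6 melanocyte lineage genes had a region over the start, with a level of 774 at SOX10, 269 at PMEL and 98.4 at MITF, and MLANA, TYR and DCT had none. Of 6 dedifferentiated-state genes, AXL among them, 5 had one, and of 3 keratinocyte and 3 immune genes 0 had one.

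H3K27ac at the 5 gene loci held 1 call, a region upstream of GAS6, and the other 23 regions had none. Over all tested regions of the authors' deposited table, 1.65% were positive calls. Among the 24 member regions 12 were tested, 7 of the ligands and 5 of the receptors, and MERTK had 0 tested regions because all of its 3 regions were weak. Of all 24 regions, 17 had a positive and 7 a negative fold change in the authors' deposited table. The positive share was 70.8%, beside 73.7% over all regions. The median of the 24 was 0.32, beside 0.28 over all regions. An unadjusted p-value under 0.05 was given to 5 member regions in the authors' deposited table, all positive, 3 at GAS6, 1 at AXL and 1 at MERTK. Over all regions 8.68% were positive and 0.31% negative at that level.

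**Figure D1:**
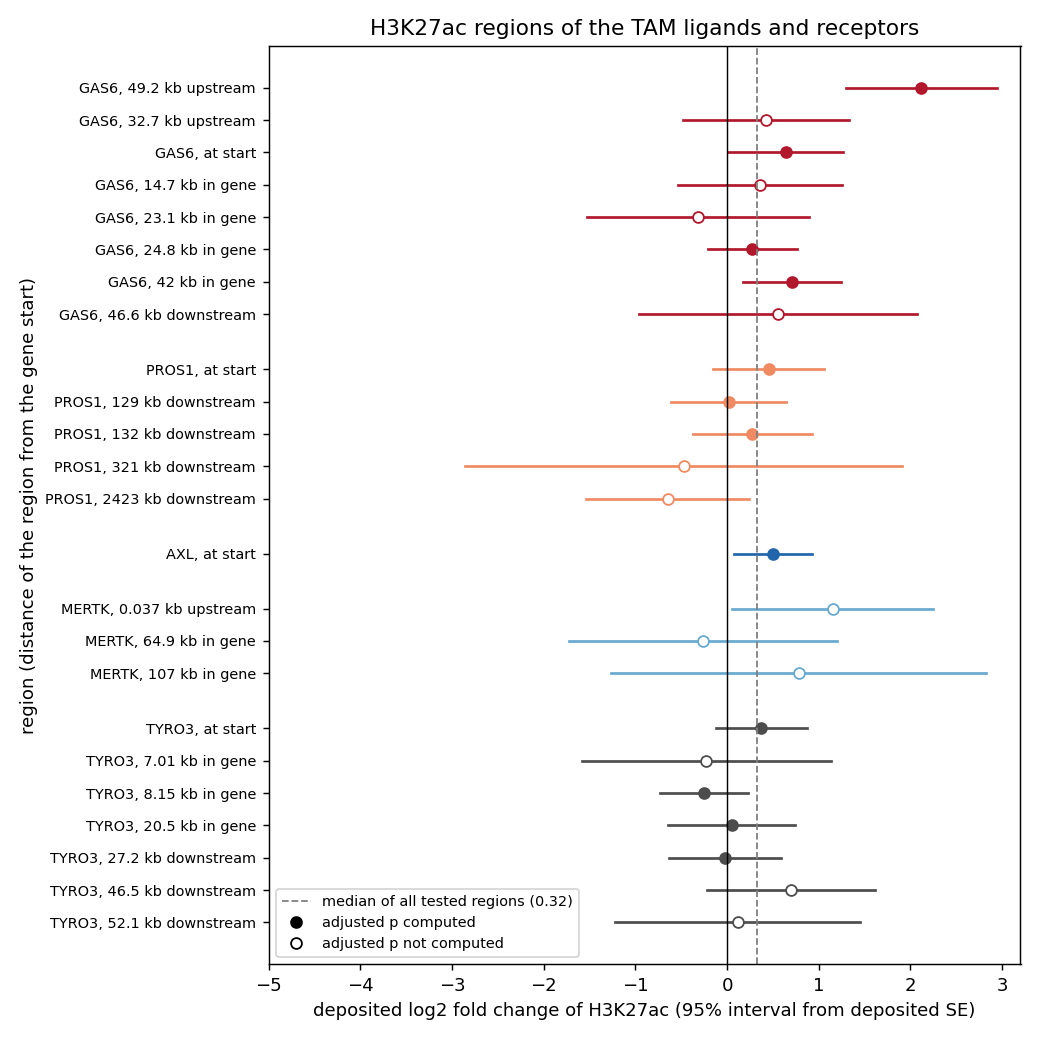
Deposited log2 fold change (x axis) of each of the 24 regions, 1 row per region grouped by gene, with 95% intervals from the deposited standard errors. Filled points have an adjusted p-value, open points do not. The GAS6 region 49.2 kb upstream, at 2.12, is the member whose interval lies wholly above the dashed median of 0.32.

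GAS6, the ligand of all TAM receptors, had 8 regions, more than 78.9% of genes in the table. The called region (chr13:113913237-113914906, hg38 coordinates as in the authors' deposited table) lay 49170 bases upstream of the GAS6 start. The authors' deposited table gives it a log2 fold change of 2.12 ± 0.42 (standard error), a ratio of 4.34, and an adjusted p-value of 0.000763. This was rank 1 of 36436 tested regions by fold change. The region was 1669 bases wide, with a mean level of 25.8 or 15.5 per kb, and held 8.91% of the summed level of the 8 GAS6 regions. Its 95% interval, 1.29 to 2.94 from the authors' deposited standard error, lay above the common median of 0.32. With the common median subtracted, the log2 fold change was 1.80 and the adjusted p-value, computed from the authors' deposited standard errors, was 0.0291, where 0.0521% of all tested regions were positive calls. This value only restates the largest fold change of the table on another centre.

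The called region lies outside the GAS6 gene and overlaps LINC00452, a long noncoding RNA gene, in the RefSeq annotation of GRCh38.p14. Among protein-coding starts of that annotation, GAS6 was the nearest at 49.2 kb and C13orf46 the next at 59.2 kb. Starts of the noncoding genes SWINGN, at 14.1 kb, LINC00454, at 29.8 kb, and GAS6-DT, at 49.1 kb, were closer. The strand of LINC00452 was not available, so which of its ends is the start is unknown. Both ends, at 113895103 and 113921317, lie nearer to the called region than the GAS6 start does. Neither these noncoding genes nor C13orf46 are among the assigned genes of the authors' deposited table, 99.5% of whose matched symbols are protein-coding. The assignment to GAS6 is thus by distance and does not show that the region acts on GAS6.

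The other 7 GAS6 regions had log2 fold changes from -0.31 to 0.71 in the authors' deposited table. In the authors' deposited table the region over the start, at a level of 37.9, had 0.64 ± 0.32 (standard error), with p-values of 0.0449 unadjusted and 0.261 adjusted. A region over the far end of the gene, 42.0 kb from the start, where the noncoding gene GAS6-AS1 overlaps it, had 0.71 ± 0.27 (standard error; adjusted p-value 0.149) at a level of 62.2, again from the authors' deposited table. The strongest GAS6 region by level, 125, lay in the gene 24.8 kb from the start and had 0.28 ± 0.25 (standard error) in the authors' deposited table. GAS6-AS1 overlaps this region too. The remaining 4 regions had levels from 4.38 to 14.0 and no adjusted p-value, and the only negative value of the gene, -0.31 ± 0.62 (standard error) in the authors' deposited table, was among them. The interval of the start region was 0.01 to 1.26 from the authors' deposited standard error. Whether the start region differs from the called region was not tested, since the choice of GAS6 used the value of the latter.

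Neighbouring regions were examined next. Within 250 kb of the start there were 19 regions, of which 9 were tested and 1 was called. Of the 19, 18 were positive, or 94.7%, beside 73.7% over all regions and 87.3% over all tested regions. The median log2 fold change of the 19 was 0.56 in the authors' deposited table, beside 0.28 over all regions. The nearest region on the GAS6 side, 15.3 kb away, had 0.43 ± 0.46 (standard error) in the authors' deposited table. On the other side the nearest was 121 kb away and had 0.11 ± 0.55 (standard error) in the authors' deposited table. Neither of these flanking regions was tested, with levels of 13.6 and 9.49. Downstream of GAS6, all 7 regions assigned to TMEM255B were positive in the authors' deposited table, from 0.42 to 0.93 with a median of 0.67. Of these 7, 3 were tested and 0 were calls (smallest adjusted p-value 0.0931). An unadjusted p-value under 0.05 was given to 4 of the 7 in the authors' deposited table. The 4 regions of RASA3 in the window ran from 0.11 to 0.58 in the authors' deposited table.

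**Figure D2:**
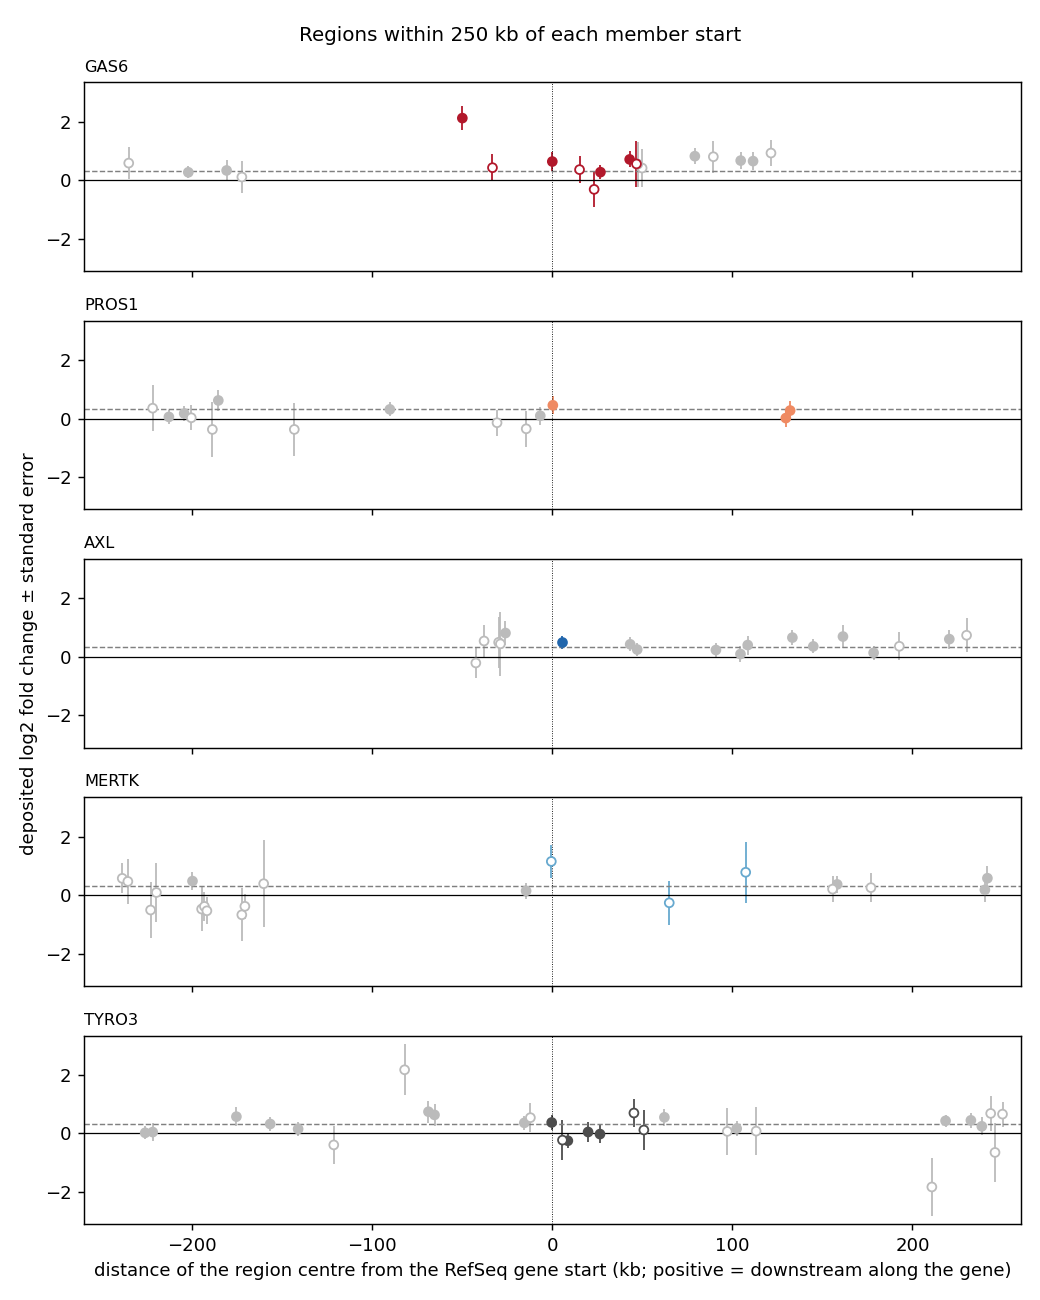
Log2 fold change with its deposited standard error (y axis) of every region within 250 kb of each gene's RefSeq start (x axis, kb along the gene), coloured where assigned to the member and grey where assigned to another gene. At GAS6 the called region at 2.12 lies above every other region of its window, and the 7 TMEM255B regions downstream lie between 0.42 and 0.93.

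PROS1 encodes the ligand protein S. It had 5 regions, of which 3 were tested, 0 were calls and 0 had an unadjusted p-value under 0.05. The region over its start (chr3:93972658-93974595) had a log2 fold change of 0.45 ± 0.31 (standard error) at a level of 47.9 in the authors' deposited table. The others lay downstream of the gene, 129 kb, 132 kb, 321 kb and 2423 kb from the start, with 0.02, 0.27, -0.47 and -0.65 in the authors' deposited table. The farthest is assigned to PROS1 by distance alone. Its interval in the authors' deposited table, -1.53 to 0.24, lay below the common median, as did that of 1 TYRO3 region. Over all regions 1.97% had such an interval below the median and 1.31% above it. Within 250 kb of the PROS1 start, 10 of 14 regions were positive (71.4%), with a median of 0.07 in the authors' deposited table. Over all regions 73.7% were positive, and over all tested regions 87.3%.

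AXL, the receptor bound by GAS6 and not by protein S, had a single region (chr19:41218144-41231127), the broadest and strongest of the 24. It spanned 12983 bases, from 1078 bases upstream of the first RefSeq start to 11904 bases beyond it, and so also covered the second RefSeq start 7532 bases downstream. Its level of 516 exceeded that of 99.2% of the 10642 regions over gene starts, and its level per length, 39.7 per kb, that of 94.9%. The authors' deposited table gives it 0.50 ± 0.22 (standard error) on the log2 scale, with p-values of 0.0224 unadjusted and 0.205 adjusted. The interval, 0.07 to 0.93, included the common median. Within 250 kb, 17 of 18 regions were positive (94.4%), with a median of 0.44 in the authors' deposited table, and 0 were calls. Over all regions 73.7% were positive, and over all tested regions 87.3%.

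MERTK, the receptor best known from engulfment by macrophages and retinal pigment epithelium, carried little H3K27ac, with 3 regions at levels of 11.4, 4.86 and 2.81. The strongest (chr2:111897612-111898442) ended 165 bases short of the RefSeq start, or 37 bases from the start used in the authors' deposited table. On the log2 scale it had 1.15 ± 0.56 (standard error) in the authors' deposited table, with an unadjusted p-value of 0.0395 and none adjusted. Its level per length of 13.7 per kb exceeded that of only 4.58% of regions over gene starts. The regions within the gene, 64.9 and 107 kb from the start, had -0.26 ± 0.75 and 0.78 ± 1.04 (standard error) in the authors' deposited table, and both intervals included 0.

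TYRO3, the remaining receptor, had 7 regions, 4 of them tested and 0 called. The region over its start (chr15:41557147-41560543) had a log2 fold change of 0.37 ± 0.25 (standard error) at a level of 76.2 in the authors' deposited table. The strongest TYRO3 region lay within the gene, 8.15 kb from the start used by the authors (chr15:41565827-41569820, level 86.9), and had -0.25 ± 0.25 (standard error) in the authors' deposited table. Its interval, -0.73 to 0.23, did not reach the common median. The other tested regions, within the gene and just beyond it, had 0.05 and -0.02 in the authors' deposited table. Of the untested TYRO3 regions, with levels from 5.73 to 15.0, the value farthest from 0 was 0.70 ± 0.47 (standard error) in the authors' deposited table.

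The regions at the gene starts allow the clearest comparison of ligands with receptors, since each gene has 1, though that of MERTK ended short of the RefSeq start. By level per length the order was AXL with 39.7 per kb, PROS1 with 24.7, GAS6 with 23.1, TYRO3 with 22.4 and MERTK with 13.7, beside a median of 25.3 over all regions at starts. No spread between libraries is known, so whether neighbours in this order differ cannot be said. By fold change (log2) the order in the authors' deposited table was MERTK (1.15), GAS6 (0.64), AXL (0.50), PROS1 (0.45) and TYRO3 (0.37), and the intervals of all 5 include the common median. The start regions of ligands therefore lay within the range of the receptors. For fold change the upper end of that range was the weak, untested MERTK region, and GAS6 lay above both AXL and TYRO3. The GAS6 start region also covers the start of GAS6-DT, a noncoding gene on the other strand whose RefSeq start is 101 bases away, so the signal of the 2 starts cannot be told apart.

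**Figure D3:**
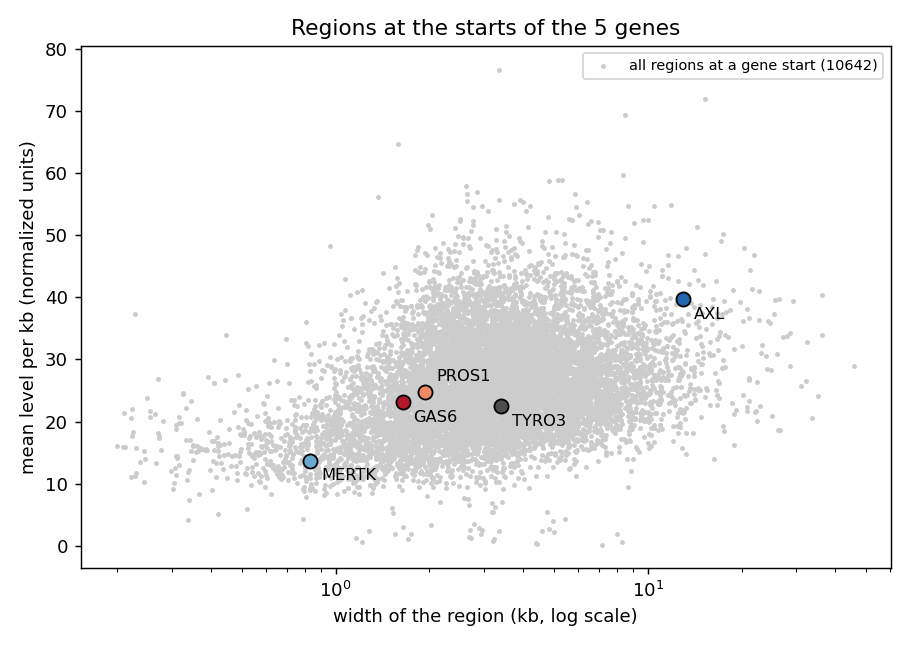
Width (x axis, kb, log scale) and mean level per kb (y axis) of the start region of each of the 5 genes, over 10642 regions at gene starts in grey. AXL, 12983 bases wide at 39.7 per kb, and MERTK, 830 bases at 13.7 per kb, lie at opposite ends, and the ligands lie between.

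The promoter sequences of GAS6, AXL and MERTK are shown because GAS6 holds the call and the start regions of AXL and MERTK are the broadest and the narrowest of the 5. Each line gives the 250 bases before the RefSeq start (GRCh38.p14), 5′ to 3′ along the gene, with the GC box GGGCGG, read on both strands, in capitals.
GAS6 (chr13:113864077-113864326, minus strand): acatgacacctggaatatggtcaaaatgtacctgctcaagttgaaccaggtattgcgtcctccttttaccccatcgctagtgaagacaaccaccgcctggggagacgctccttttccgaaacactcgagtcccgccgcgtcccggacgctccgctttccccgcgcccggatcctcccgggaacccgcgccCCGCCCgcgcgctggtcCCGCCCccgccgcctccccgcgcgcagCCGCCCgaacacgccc
AXL (chr19:41218973-41219222, plus strand): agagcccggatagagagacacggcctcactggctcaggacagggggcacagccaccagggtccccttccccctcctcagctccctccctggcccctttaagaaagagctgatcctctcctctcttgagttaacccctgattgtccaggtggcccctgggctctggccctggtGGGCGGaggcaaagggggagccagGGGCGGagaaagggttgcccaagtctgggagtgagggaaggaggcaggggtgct
MERTK (chr2:111898357-111898606, plus strand): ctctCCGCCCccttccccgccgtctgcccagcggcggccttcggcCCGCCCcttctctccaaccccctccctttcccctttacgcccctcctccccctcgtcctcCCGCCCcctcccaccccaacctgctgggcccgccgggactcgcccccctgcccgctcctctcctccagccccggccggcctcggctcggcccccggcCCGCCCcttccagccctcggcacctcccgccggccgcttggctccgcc

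In the printed stretches the GC box occurred 3 times for GAS6, 2 times for AXL and 4 times for MERTK. In the 300-base windows that run on 50 bases past the start, all 5 genes had at least 2 at their first start, and 45.0% of 35116 RefSeq promoter windows had at least 1. CG dinucleotides numbered 42 in the GAS6 window, 49 for TYRO3, 32 for MERTK, 18 for PROS1 and 7 for AXL, beside a median of 14 over all windows. Of these 5 windows of first starts, that of AXL was thus the poorest in CG, with 36.8% of all windows holding fewer. The window of the second AXL start, in the same region, held 17, and 54.0% of all windows held fewer. That of the second TYRO3 start held 10. The windows of the first starts of GAS6, PROS1, AXL and TYRO3 lay wholly inside their regions, but 86 of 300 bases of the MERTK window did. The AP-1 motif TGANTCA was found in the TYRO3 window (7.71% of all windows), and the E-box CATGTG (11.1%) and the TEAD motif GGAATG (14.0%) in that of the second AXL start. CACGTG (7.26%) and the PPAR-type direct repeat DR1 (0.0228%) were found in none of the 7 windows of the 5 genes. All motifs were searched on both strands, and a match describes letters and not binding.

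Over all their regions, the ligand loci had a median log2 fold change of 0.36 (range -0.65 to 2.12) and the receptor loci of 0.12 (range -0.26 to 1.15) in the authors' deposited table. The difference of 0.24 was not tested, since the choice of genes used this comparison and regions of 1 gene are not replicates. Its sign depended on which genes were counted. It was -0.10 with GAS6 left out, -0.28 with TYRO3 left out, and -0.25 when each gene counted once through its own median, computed from the authors' deposited table. By gene the medians in the authors' deposited table were 0.49 for GAS6, 0.02 for PROS1, 0.50 for AXL, 0.78 for MERTK and 0.05 for TYRO3. GAS6 thus lay within the range of the receptors, and PROS1 just below it. Away from starts the 11 ligand regions had a median of 0.28 and the 8 receptor regions of 0.01 in the authors' deposited table. AXL had no region away from its start, so the receptor side was TYRO3 and the weak, untested regions within MERTK. The ligand side included the GAS6 call.

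The contrast between a called region far from a gene and the start region of the same gene was set beside other genes of the same kind. A total of 284 genes in the authors' deposited table had a tested start region and at least 1 call away from the start, GAS6 being the only member among them. The largest called value away from the start minus the value at the start was 1.48 for GAS6 on the log2 scale, rank 2 of 284, where the median was 0.54. The nearest values were 1.55 for GORAB, 1.42 for CFAP70, 1.31 for NFE2L1, 1.30 for DHX9 and 1.27 for FAM84B. In the authors' deposited table the GAS6 start region had 0.64, with an interval of 0.01 to 1.26, and those of these 5 genes had values from -0.13 to 0.32. Whether they differ was not tested. This measure rests on the comparison that chose GAS6 and is a description.

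**Figure D4:**
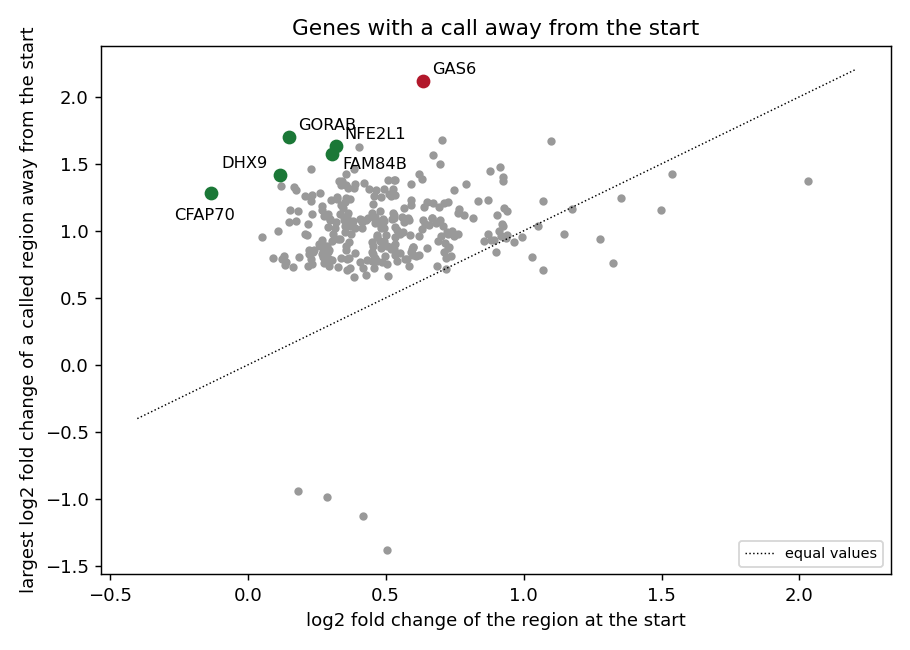
Log2 fold change of the start region (x axis) and the largest log2 fold change of a called region away from the start (y axis) for 284 genes, with GAS6 in red and the 5 genes nearest to it by the difference in green. GAS6 has the highest value on the y axis, 2.12.

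Other genes of the pathway were taken from lists of 45 genes, of which 42 had at least 1 region, and F9, F10 and PRRG3 were not listed. By the DESeq2-type adjusted p-values of the authors' deposited table, 0 of their 128 tested regions were calls in either direction, beside 1.67% of all tested regions. An unadjusted p-value under 0.05 was given to 19 of all 292 regions, or 6.51%, all positive. Over all regions 8.68% were positive and 0.31% negative at that level. The median log2 fold change of the 292 regions was 0.22 in the authors' deposited table, beside 0.28 over all regions. After subtraction of the common median there were 0 calls, where only 0.124% of all tested regions were calls in either direction.

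By role, the vitamin K cycle, which supplies the cofactor for the carboxylation of both ligands, had 37 regions at 5 genes with a median log2 fold change of 0.21 in the authors' deposited table. Other Gla proteins had 29 regions and a median of 0.25. The shedding proteases ADAM10 and ADAM17, which release receptor ectodomains, had 15 regions and a median of 0.32. Kinases that pair with AXL (EGFR, MET, ERBB2 and ERBB3) had 38 regions and a median of 0.25, and adaptors and effectors 92 regions and 0.16. The engulfment genes had 81 regions and the highest median, 0.33, in the authors' deposited table, beside 0.28 over all regions.

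Among the genes with the smallest p-values were ELMO1, RAC1, MET, SOCS3 and DOCK1, and all fell short of a call. At the start of ELMO1, which with DOCK1 activates the GTPase RAC1 during engulfment, the log2 fold change was 0.66 ± 0.24 (standard error) with an adjusted value of 0.113 in the authors' deposited table. A region 8.09 kb from the RAC1 start had 0.65 ± 0.23 and a region 107 kb from the DOCK1 start 0.82 ± 0.34 (standard error) in the authors' deposited table. The region over the start of MET, a receptor kinase, had 0.59 ± 0.23 (standard error) in the authors' deposited table. A region 21.4 kb from SOCS3, a feedback inhibitor of cytokine signalling, had 0.65 ± 0.26 (standard error) in the authors' deposited table. For these 5 regions the adjusted values of the authors' deposited table lay between 0.113 and 0.179.

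**Figure D5:**
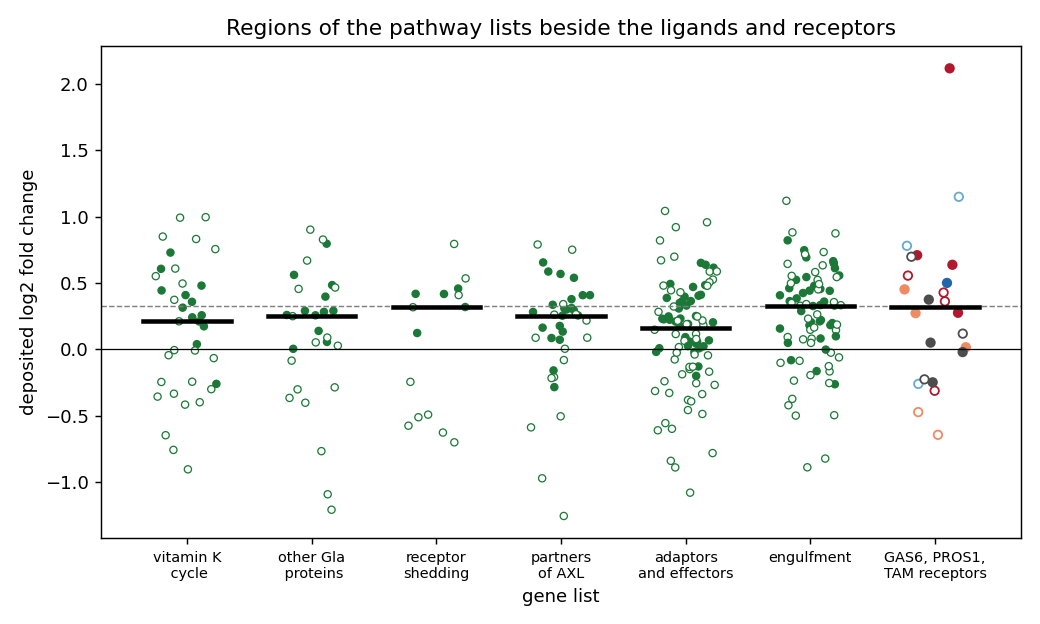
Log2 fold change (y axis) of every region of the pathway lists in green and of the 5 member genes in colour, by list (x axis), with list medians as black bars, the common median dashed, and untested regions as open points. List medians lie between 0.16 and 0.33, and the GAS6 region at 2.12 lies above every region of the lists.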

How the data were processed

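The table analysed is the authors' comparison of H3K27ac in the octanoate and vehicle libraries, on hg38 per the submitters' processing notes, which name Trim Galore, cutadapt, FastQC, Bowtie2, Picard, MACS2, featureCounts, DESeq2 and bedtools 2.29.1 with no roles. Per the file headers, mean levels are normalized signal whose scaling is not named. Deposited fold changes and standard errors are on the log2 scale, and the deposited score is their ratio. Each deposited p-value matches a normal p-value (two-sided) from the score, to within 2.89e-15. An adjusted p-value of 1, deposited for every region with a level of at most 18.44, was read as not computed. The distance in bases is the deposited one, per the file headers. Starts implied by it lay 8 to 1538 bases from RefSeq starts for 4 members, and the table does not give that of AXL. Of columns for single libraries, 0 were left out.

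Lines repeating a region were merged. Intervals of 95% are the fold change ± 1.96 deposited standard errors. They carry no check between libraries. Centring subtracted the median of tested regions, with normal p-values from the deposited standard errors and Benjamini-Hochberg adjustment over the same regions. This step was run on simulated data drawn from the deposited standard errors around a constant shift. Such data cannot check whether those standard errors are right or the shift is uniform. Python 3.11.15 with pandas 2.3.3 and scipy 1.17.1 was used, and RefSeq starts and promoters of GRCh38.p14 matched all 5 members. Described in full were start regions, calls and extreme regions of each member. From the pathway list the 6 genes with the smallest p-values were to be named, of which 1 is not reported here. From the comparison of calls with starts, the 5 genes nearest to GAS6 were named. Members and lists were chosen with earlier results of these data known. The planned test across libraries was not run, because the table holds no value per library.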

Additional observations from a re-analysis of the deposited data

How the results depend on the processing

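The GAS6 call was made under each of the 6 settings tried, but not all of these could have removed it. Stricter cutoffs on adjusted p-value (0.01), size of change (1) and level (10) left its adjusted p-value at 0.000763. At 2.12 and a level of 25.8 the region already met them. The adjusted p-value changed to 0.0291 after centring (log2 fold change 1.80). It was 0.00191 with adjustment over all distinct regions, and also with repeated lines counted. GAS6 was chosen with this fold change known, so the count of settings is not independent support. The single call among the members and the 0 calls of the pathway list were the same in number under the 6 settings. Stricter cutoffs cannot add a call, so for the pathway list they could not change the 0. After centring, only 0.124% of all tested regions were calls in either direction. The difference between ligand and receptor medians, 0.24, was 0.02 among members with a level of 10 or more and 0.40 among tested members. It was -0.10 without GAS6, -0.28 without TYRO3 and -0.25 as a median over genes, and the sign follows from which genes are counted. The median of the 5 start regions, 0.50, was 0.18 after centring, by construction. Calls within 250 kb of a member start numbered 1, also 1 within 100 kb and 6 within 1000 kb, a window chosen after seeing the data. Tested regions in the 1000 kb windows numbered 34 for GAS6, 13 for PROS1, 54 for AXL, 38 for MERTK and 62 for TYRO3. Over all tested regions, 1.67% were calls. No paired analysis was possible because levels of single libraries are not given in the table used here, and for the same reason settings on counts, size factors, single libraries and the replicate block were not run.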

Other observations

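Beyond the window described above, the surroundings of the 5 genes differed in their share of positive fold changes. Within 1000 kb of the GAS6 start 58 of 62 regions were positive (93.5%), with a median log2 fold change of 0.48 in the authors' deposited table. For AXL it was 84 of 93 (90.3%) with a median of 0.45, and for MERTK 75 of 99 (75.8%) with 0.35. For TYRO3 it was 102 of 130 (78.5%) with 0.26, and for PROS1 15 of 25 (60.0%) with 0.03, beside 73.7% and 0.28 over all regions of the authors' deposited table. Over all tested regions 87.3% were positive, with a median of 0.32, and the windows differed in how many of their regions were tested. These were 34 of 62 for GAS6, 54 of 93 for AXL, 38 of 99 for MERTK, 62 of 130 for TYRO3 and 13 of 25 for PROS1. Regions of 1 locus are not independent, and the differences between windows were not tested.

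Apart from the GAS6 region, 5 calls lay within 1000 kb of a member start, named after their values were seen. With that region counted, calls were 2 of 34 tested regions around GAS6, 2 of 54 around AXL and 2 of 62 around TYRO3. The windows of PROS1 and MERTK, with 13 and 38 tested regions, held 0. Over all tested regions, 1.67% were calls. Near GAS6 a region assigned to RASA3, a GTPase-activating protein of RAS, had a log2 fold change of 1.10 ± 0.28 (standard error) in the authors' deposited table, and an adjusted p-value of 0.0150. Near AXL, regions assigned to DEDD2 and LTBP4 had 1.35 ± 0.25 and 0.99 ± 0.27 (standard error), and near TYRO3 those assigned to INO80 and CHAC1 had 1.02 ± 0.23 and 0.92 ± 0.23 (standard error) in the authors' deposited table. After centring, DEDD2 was the only call of these 5, its adjusted value from the authors' deposited standard errors being 0.0488.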
